A study of Mus musculus with 16 samples.

Results

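Ribosome enrichment, the log2 ratio of a transcript's level on precipitated ribosomes to its level in total RNA of the same lysate, was compared between hypothalami with and without Lepr in PNOC neurons. The comparison was made for 13772 of the 45706 genes in the count table, those with a mean of at least 1 CPM, counts scaled to library size, over the libraries. It used all 16 libraries, an input and a pulldown library from each of 8 pools. Pools 1 to 4 came from control mice labelled Control (Lepr-flox) and pools 5 to 8 from mice labelled Pnoc Lepr deletion, and each pool held the tissue of 4 animals. All animals carried the ROSA-STOP-L10a-bactrap allele, which makes the ribosomal protein L10a fused to GFP only after Cre recombination, so that anti-GFP antibodies collect ribosomes of PNOC neurons. The labels call the controls Lepr-flox without naming their Cre allele, and a pool averages its animals, so variation between single mice is not seen. Mice of both genotypes were on a C57Bl/6N background, ate chow, and were sampled random fed in the morning at 12 weeks of age per the treatment protocol, or at 10 to 12 weeks per the extraction protocol.

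PNOC neurons make prepronociceptin, the precursor of the opioid-like peptide nociceptin, and many hypothalamic PNOC neurons are inhibitory. Leptin, a hormone of fat tissue, binds its receptor LEPR on hypothalamic neurons and activates the kinase JAK2 and the transcription factor STAT3, which raises transcripts such as Socs3 and Serpina3n. A difference in enrichment asks more than a difference in pulldown: a transcript that shifted equally in the neurons' ribosomes and in the whole hypothalamus gives a value near 0. In bulk samples such as these, fewer cells of a type and less RNA per cell cannot be told apart, and neither can a change of transcript level in PNOC neurons and a change of ribosome loading.

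The libraries held 64435952 to 78623636 estimated counts with 21339 to 23357 genes detected. Mitochondrial ribosomal RNA took 26.8 to 28.1% of control input and 23.7 to 25.9% of deletion input, which did not overlap, against 0.0622 to 0.0844% of pulldown. After TMM scaling the effective library sizes were 53416898 to 63996524 in input and 75869768 to 93623596 in pulldown. Without the mitochondrially encoded genes 4 genes passed the test described next, as with them. A floor of 3 counts corresponded to 0.0469 to 0.0562 CPM in input and 0.0320 to 0.0395 CPM in pulldown, and covers counting error only. Pnoc itself, the marker of the labelled cells, was enriched in every pool, with log2 enrichments of 1.49, 1.69, 1.67 and 1.86 in control pools 1 to 4 and 2.06, 1.80, 1.61 and 1.25 in deletion pools 5 to 8. The 21 astrocyte markers had 5885 to 6454 summed CPM in control input and 827 to 863 in control pulldown, so RNA of cells other than the labelled ones was reduced but present. Pools also varied in 2 other features, the vascular and the Y-linked level. The part of the vascular level in the results was not tested, and the Y-linked level was only added as a covariate. The summed vascular markers reached 1092 CPM in the input of deletion pool 7 against 257 to 484 in the other input libraries. The mean Y-linked level in input ran from 3.26 to 4.92 log2 CPM over the pools, and with it as a covariate, an analysis added after the data were seen, 11 genes passed, 8 higher and 3 lower.

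Few transcripts passed the test of a changed enrichment. By edgeR's quasi-likelihood test of the genotype-by-fraction interaction, with the pool as a block and Benjamini-Hochberg adjustment at 0.05, 4 of 13772 genes passed, 0.029% of those tested. Enrichment fell for Serpina3n, Cartpt and the long noncoding RNA G530011O06Rik and rose for Aim2. In the same libraries the pulldown differed between genotypes for 693 genes (5.03%, 392 higher and 301 lower) and the input for 72 genes (0.523%, 45 higher and 27 lower). All 4 genes were also among those 693, which share their pulldown libraries with the interaction. Of the 693, 663 had a difference of enrichment of the same sign. The 392 higher genes had medians of 0.10 in input and 0.22 in pulldown, and the 301 lower genes -0.12 and -0.30. The interaction subtracts the input difference from the pulldown difference and was tested in another fit, so its count is not directly comparable with theirs. The median difference of enrichment over all genes was -0.02 on the log2 scale, with quartiles of -0.12 and 0.09, against a median standard error (SE) of 0.09, and 46.0% of genes had a positive difference. At an unadjusted p under 0.05 there were 1000 genes with higher enrichment (7.26%) and 1156 with lower enrichment (8.39%), and these shares are the background for the gene groups described further on. The count rested on 1 pool: without deletion pool 5, 826 genes passed, 479 higher and 347 lower, whereas leaving out any other single pool left 1 to 4.

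**Figure D1:**
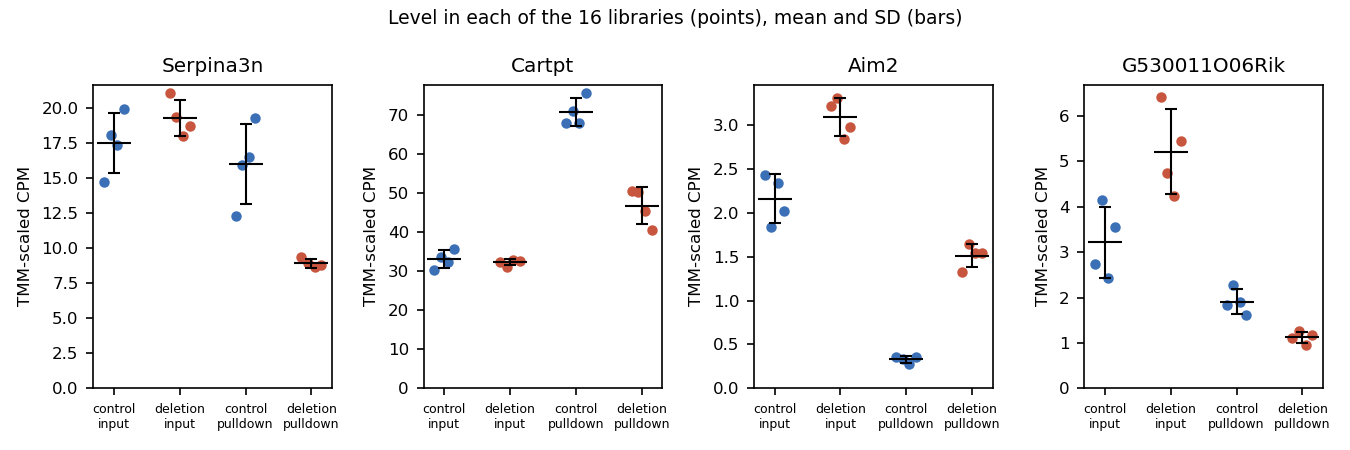
Level of the 4 genes that passed, in TMM-scaled CPM on linear axes from 0, in each of the 16 libraries, with bars for the mean and SD of 4 pools. Serpina3n in deletion pulldown lay between 8.63 and 9.39 CPM, below control pulldown at 12.3 to 19.3 CPM, while its input libraries overlapped.

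Serpina3n (ENSMUSG00000021091, GRCm38 chromosome 12, 104406646 to 104414334) encodes a secreted serine protease inhibitor that responds to STAT3 signalling. Its input levels were 14.7, 18.1, 17.4 and 20.0 CPM for control pools 1 to 4 and 21.1, 19.4, 18.04 and 18.7 CPM in deletion pools 5 to 8. Its pulldown levels were 12.3, 15.9, 16.5 and 19.3 CPM for control pools and 9.39, 8.93, 8.63 and 8.84 CPM in deletion pools. Input levels of the genotypes overlapped, whereas every deletion pulldown lay under every control pulldown. Its enrichment was close to 0 in control pools, at -0.26, -0.18, -0.07 and -0.05, and was -1.17, -1.12, -1.06 and -1.08 in deletion pools. A transcript that the control neurons' ribosomes held about as often as the whole tissue was depleted in the pulldown after deletion. The difference was -0.97 (SE 0.08, adjusted p = 9.71e-05), made of 0.14 in input (adjusted p = 0.566) and -0.84 in pulldown (adjusted p = 0.000537). It passed in each of the 23 other analyses (other scalings, filters, tools and tables, and left-out pools), with values of -1.05 to -0.94. Of the 11 Serpina3 genes with a row, 8 had counts and Serpina3n alone reached the minimum level, the next being Serpina3g with a mean of 0.285 CPM.

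Cartpt (ENSMUSG00000021647, chromosome 13, 99898483 to 99910179) encodes the precursor of CART, a peptide that reduces food intake. CPM values in input were 30.3, 33.8, 32.3 and 35.8 for control pools and 32.4, 31.1, 32.9 and 32.5 for deletion pools. CPM values in pulldown were 68.1, 71.2, 68.0 and 75.6 for control pools and 50.5, 50.4, 45.4 and 40.6 for deletion pools. The input levels overlapped and the pulldown levels did not, and Cartpt stayed above its input in all 8 pools. Enrichment was 1.17, 1.08, 1.08 and 1.08 in control pools and 0.64, 0.69, 0.46 and 0.32 in deletion pools. The difference was -0.57 (SE 0.08, adjusted p = 0.0249), with -0.03 in input (adjusted p = 0.846) and -0.60 in pulldown (adjusted p = 6.57e-05). Without the pool block its adjusted p was 0.0524, and it passed in 3 of the 8 analyses that left out a pool.

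Aim2 (ENSMUSG00000037860, chromosome 1, 173349547 to 173466040) encodes a sensor of DNA in the cytosol that assembles an inflammasome. Input libraries held 2.44, 1.83, 2.34 and 2.02 CPM for control pools and 3.22, 3.31, 2.84 and 2.98 CPM in deletion pools. Pulldown libraries held 0.356, 0.331, 0.276 and 0.362 CPM for control pools, from 24 to 33 counts, and 1.32, 1.64, 1.54 and 1.54 CPM in deletion pools, from 112 to 152 counts. Both fractions were higher in every deletion pool, and the pulldown by more. Enrichment was -2.69, -2.38, -2.97 and -2.40 in control pools and -1.27, -0.999, -0.87 and -0.94 in deletion pools, so Aim2 remained depleted from the pulldown in both genotypes. The difference was 1.66 (SE 0.24, adjusted p = 0.0281), with 0.52 in input (adjusted p = 0.0961) and 2.19 in pulldown (adjusted p = 1.04e-07). It passed in 1 of the 8 analyses that left out a pool, and was 0.39 on the log2(TPM + 1) scale. The upstream end of Aim2's annotated span overlaps Cadm3, a neuronal adhesion molecule whose enrichment differed by 0.08. Reads of overlapping genes can be divided between them. The neighbouring interferon-inducible genes Ifi203, Ifi204, Mndal and Ifi205 lay under the minimum level, with Ifi203 at means of 0.572 and 1.03 CPM in control and deletion input and 0.0720 and 0.0581 CPM in pulldown.

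G530011O06Rik (ENSMUSG00000072844, chromosome X, 169975043 to 169978917), a long noncoding RNA gene, differed in opposite directions in the fractions. Its CPM in input was 2.73, 4.16, 2.42 and 3.55 for control pools and 6.42, 4.75, 4.25 and 5.45 for deletion pools. Its CPM in pulldown was 1.85, 2.28, 1.90 and 1.63 for control pools and 1.11, 1.25, 0.963 and 1.17 for deletion pools. Neither fraction overlapped between genotypes. Enrichment was -0.56, -0.86, -0.35 and -1.11 in control pools and -2.502, -1.90, -2.11 and -2.19 in deletion pools, a difference of -1.47 (SE 0.22, adjusted p = 0.0382). It passed in 1 of the 8 analyses that left out a pool, and without the pool block its adjusted p was 0.0539. The gene overlaps Mid1 and has a near-identical copy on chromosome Y, so its counts are uncertain, and the sources used here do not give the mix of sexes in each pool. Mid1 differed by 0.01 and the neighbour Erdr1 by -0.09 in enrichment, although Erdr1 was lower in deletion pools in input by -0.86 (adjusted p = 0.0162) and in pulldown by -0.98 (adjusted p = 0.00361).

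**Figure D2:**
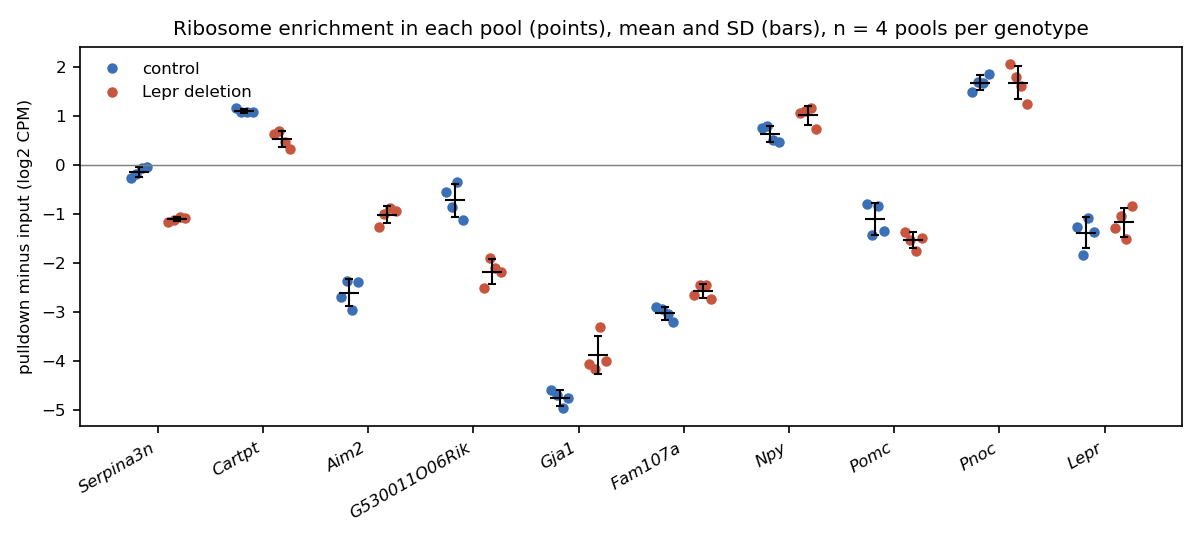
Log2 enrichment (pulldown minus input) of 10 genes in each pool, with the mean and SD of 4 pools per genotype. The 4 genes on the left passed the test and their pools did not overlap, whereas Pnoc averaged 1.68 in both genotypes.

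The promoters of the 3 protein-coding genes that passed are shown because a STAT3-responsive gene and a cAMP-responsive peptide gene were among them. The windows run from 250 bases before to 50 bases after the start site that RefSeq's GRCm38.p6 promoter table gives for each gene, 5' to 3' on the gene's strand. That table holds 1 window per gene here, and the gene spans given above reach further upstream, by 62 bases for Serpina3n, 9496 bases for Cartpt and 71057 bases for Aim2, whose start site in the window lies outside Cadm3. Start sites further upstream are not shown. They lie at chr12:104406458-104406757 on the plus strand for Serpina3n, chr13:99900634-99900933 on the minus strand for Cartpt and chr1:173420354-173420653 on the plus strand for Aim2. Capitals mark a match to a searched motif.
Serpina3n: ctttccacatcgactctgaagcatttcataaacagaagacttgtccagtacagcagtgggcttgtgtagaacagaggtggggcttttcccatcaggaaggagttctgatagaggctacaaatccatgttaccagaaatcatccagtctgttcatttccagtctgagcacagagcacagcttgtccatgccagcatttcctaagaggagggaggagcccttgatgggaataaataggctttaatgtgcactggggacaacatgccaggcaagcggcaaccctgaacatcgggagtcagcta
Cartpt: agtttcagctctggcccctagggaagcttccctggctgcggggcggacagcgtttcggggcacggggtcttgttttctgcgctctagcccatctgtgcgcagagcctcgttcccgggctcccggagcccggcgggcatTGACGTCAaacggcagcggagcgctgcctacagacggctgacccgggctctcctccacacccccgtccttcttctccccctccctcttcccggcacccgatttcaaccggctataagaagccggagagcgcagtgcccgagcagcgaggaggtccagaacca
Aim2: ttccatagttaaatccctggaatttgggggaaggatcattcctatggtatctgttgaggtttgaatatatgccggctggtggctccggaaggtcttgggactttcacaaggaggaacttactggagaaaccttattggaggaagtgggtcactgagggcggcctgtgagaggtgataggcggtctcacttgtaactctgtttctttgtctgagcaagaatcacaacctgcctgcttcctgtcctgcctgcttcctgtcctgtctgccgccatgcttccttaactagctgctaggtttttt
Both strands were searched for TTCNNNGAA, the palindrome bound by STAT factors, TGACGTCA, the cyclic AMP response element, and TATAAA, the TATA box. Cartpt held TGACGTCA with its first base 112 bases before the start site, a motif present in 1.79% of 32851 promoters of the same length. TTCNNNGAA was in 8.30% and TATAAA in 13.6% of those promoters, and neither was in the 3 windows. A match describes letters only.

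Enrichment of the targeted gene and its neighbours did not pass the test. Lepr (ENSMUSG00000057722), the leptin receptor, had enrichments of -1.28, -1.83, -1.07 and -1.36 in control pools and -1.29, -1.04, -1.52 and -0.83 in deletion pools, which overlapped. The difference was 0.22 (SE 0.21, adjusted p = 0.651), with 0.49 in input (adjusted p = 0.163) and 0.69 in pulldown (adjusted p = 0.0255). Its gene total covers all transcripts, so it cannot show the deleted part and checks nothing about the labels. Leprot, which lies beside Lepr, differed by -0.07 (SE 0.13), Rpl10a, the gene of the tagged protein, by -0.09 (SE 0.06), and Pnoc by -0.00 (SE 0.17). None of these 4 genes passed in any other analysis that gave an adjusted p.

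Among other components of leptin signalling only Serpina3n passed. Of 26 listed genes of the LEPR, JAK-STAT and insulin receptor substrate pathway that were tested, 13 had positive and 13 negative differences with a median of 0.01, against -0.02 over all genes. At an unadjusted p under 0.05, 4 were higher and 2 lower. Stat3, the transcription factor, stood at -0.25 (SE 0.06, adjusted p = 0.157), with 0.14 in input and -0.11 in pulldown. Irs1, an adaptor of insulin signalling, was at 0.28 (adjusted p = 0.181), and Jak2 at -0.01 (adjusted p = 0.934). Socs3, the feedback inhibitor, had means of 1.07 and 1.13 CPM in control and deletion input and 0.506 and 0.390 CPM in pulldown, under the minimum mean for testing.

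Of 27 feeding-related peptides tested, 8 (29.6%) had positive and 19 negative differences, with a median of -0.10, and 1 passed, Cartpt. The positive share was 46.0% over all genes and 22.4% in the shortest of 5 bins of transcript length. The peptides' median relative transcript length, 0.389, was under that of this bin, 0.502. At an unadjusted p under 0.05, 2 were higher and 7 lower, among which Trh, thyrotropin-releasing hormone, stood at -0.41 (adjusted p = 0.157) and Bdnf, a neurotrophin, at -0.29 (adjusted p = 0.157). The other 3 peptides here, of the arcuate nucleus, are given outside the naming rule because the study concerns NPY and leptin. Npy, neuropeptide Y, had enrichments of 0.75, 0.80, 0.50 and 0.47 in control pools and 1.05, 1.09, 1.17 and 0.73 in deletion pools. These overlapped through deletion pool 8, and the difference was 0.38 (SE 0.11, adjusted p = 0.175), with 0.03 in input and 0.40 in pulldown. Pomc, the melanocortin precursor, had -0.81, -1.43, -0.85 and -1.35 in control pools and -1.38, -1.52, -1.76 and -1.48 in deletion pools, a difference of -0.43 (SE 0.14, adjusted p = 0.200). Agrp, the melanocortin antagonist made by NPY neurons, differed by 0.18 (SE 0.18, adjusted p = 0.670). By DESeq2, Npy passed, at 0.39 (adjusted p = 0.0395). With no filter on low counts both Npy (adjusted p = 0.00523) and Pomc (adjusted p = 0.00220) passed. Of 23 other analyses, Npy passed in these 2 and Pomc in 1, and neither passed when a single pool was left out. In all, 186 genes passed by DESeq2 and 577 with no filter, against 4 in the main test.

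**Figure D3:**
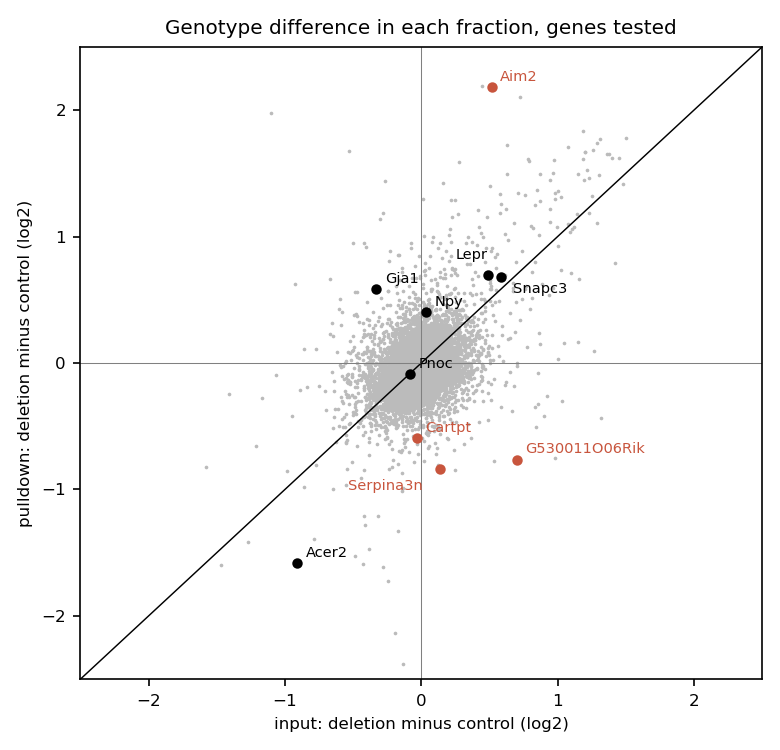
Deletion minus control on the log2 scale in input (horizontal) and pulldown (vertical) for the genes tested, with 16 genes outside the axes. Named red points passed the interaction test, named black points did not, and the diagonal marks an equal difference in both fractions, where Snapc3 and Pnoc lie close to the line.

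Some genes differed in both fractions without passing the test of enrichment. Those given here were picked for a small p in the pulldown or input comparison. Snapc3, a subunit of a complex that activates small nuclear RNA genes, was higher in input by 0.58 (adjusted p = 0.000156) and in pulldown by 0.68 (adjusted p = 8.89e-06). Its enrichment differed by 0.10 (adjusted p = 0.452). Acer2, an alkaline ceramidase of the Golgi, was lower in input by -0.91 (adjusted p = 0.00036) and in pulldown by -1.58 (adjusted p = 1.04e-07). Its enrichments were 0.58, 0.61, 0.29 and 0.48 in control pools and 0.14, -0.18, -0.41 and -0.27 in deletion pools, which did not overlap, but the difference of -0.67 (SE 0.17) had an adjusted p of 0.160. Both genes lie on chromosome 4, Snapc3 at 83415711 to 83473019 and Acer2 at 86874348 to 86932524, as does Lepr at 101717137. The predicted genes Gm3883 and Gm20938, also on chromosome 4, were higher by 1.00 and 1.14 in input and 1.07 and 1.18 in pulldown, and differed in enrichment by 0.08 and 0.04. Such near-identical predicted genes can share reads.

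Where fewer than 5 genes passed in a direction, those with the smallest unadjusted p were named. Among those with positive differences, Elavl1, the RNA-binding protein HuR, had enrichments of -0.12, -0.19, -0.25 and -0.19 in control pools and 0.10, 0.08, 0.10 and 0.13 in deletion pools. The sign differed between the genotypes in every pool, yet the difference of 0.29 (SE 0.05) had an adjusted p of 0.0888. Fam107a, an actin-associated stress protein, stood at 0.45 (adjusted p = 0.0888), Itih5, a hyaluronan-binding matrix protein, at 0.88 (adjusted p = 0.0896), and Gja1, connexin 43, at 0.89 (adjusted p = 0.0940). Zfp329, Trove2, Hnrnpu and Adrbk2 had values of 0.30 to 0.34 with adjusted p of 0.140 to 0.153. Hnrnpu binds nuclear RNA, Trove2 is the Ro60 autoantigen, and Adrbk2 is a kinase of G protein-coupled receptors.

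Among negative differences that missed the threshold, Nov, the matrix protein CCN3, stood at -1.03 (adjusted p = 0.140), Serping1, the complement C1 inhibitor, at -0.95 (adjusted p = 0.153), and Syngr2, a vesicle membrane protein, at -1.32 (adjusted p = 0.157). H2-D1, a class I major histocompatibility antigen, had enrichments of 0.07, 0.28, 0.26 and 0.00 in control pools and -0.27, -0.52, -0.35 and -0.32 in deletion pools, a difference of -0.52 (adjusted p = 0.153). Its input difference was 0.01 and its pulldown difference -0.51. Pgam5, a mitochondrial phosphatase, was the most enriched of these, with 2.55, 2.28, 2.17 and 2.24 in control pools and 1.98, 1.76, 1.78 and 1.99 in deletion pools. Its difference of -0.44 (adjusted p = 0.153) came with 0.35 in input and -0.09 in pulldown. Emc4 and Tspan12 stood at -0.27 and -0.44. Over all genes, pools of the genotypes did not overlap for 456 genes with positive differences (3.31% of the 13772 tested) and 569 with negative differences (4.13%). By the adjusted p, 0.029% of the 13772 passed.

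**Figure D4:**
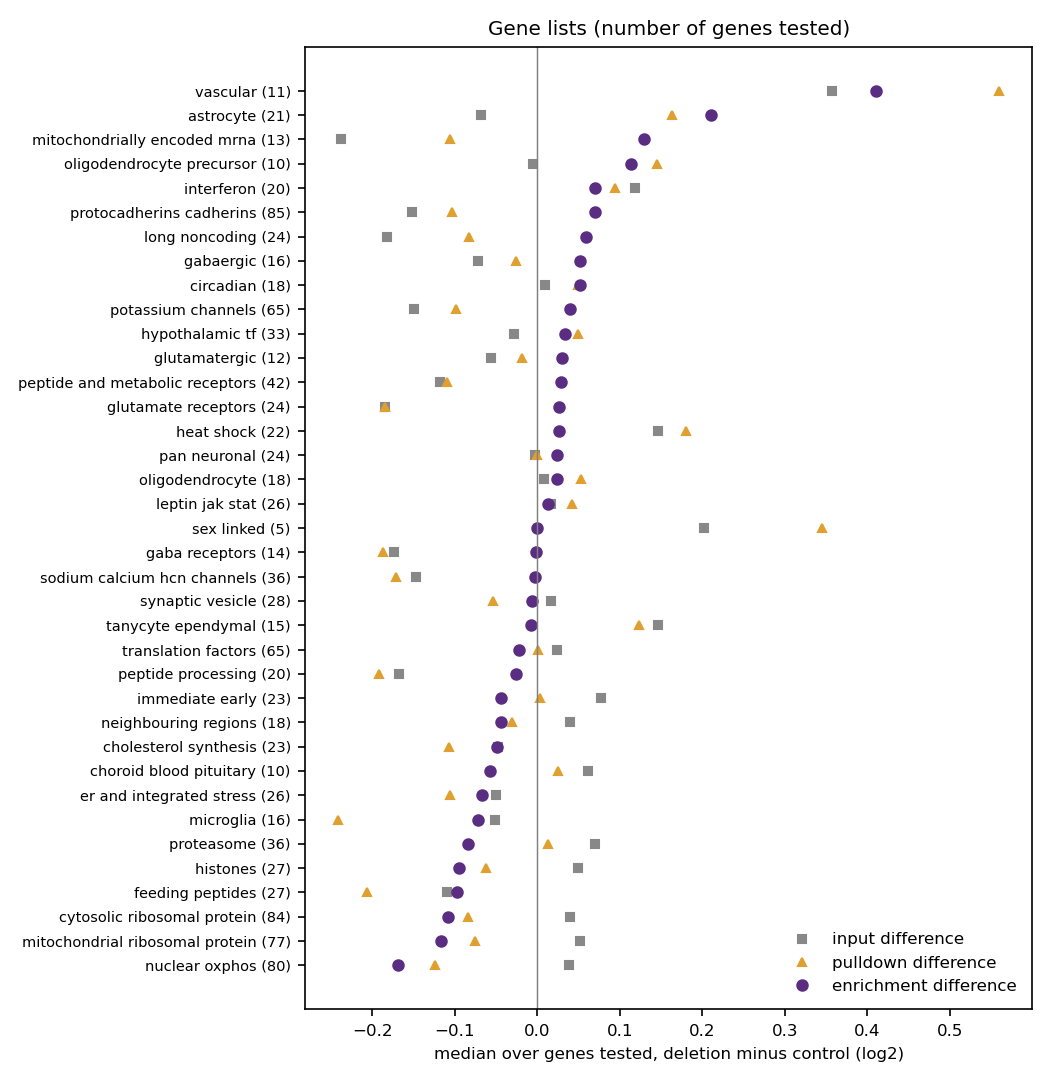
Median deletion minus control difference on the log2 scale over the tested genes of each list, for input (squares), pulldown (triangles) and enrichment (circles). Nuclear oxidative phosphorylation genes had the lowest median enrichment difference, -0.17, with 0.04 in input and -0.12 in pulldown.

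Nuclear-encoded subunits of oxidative phosphorylation, of both kinds of ribosome and of the proteasome had mostly negative differences, none of them past the adjusted threshold. These lists hold short transcripts, and their values relative to genes of the same length are given further on. Of 80 nuclear-encoded subunits of oxidative phosphorylation, 76 had negative differences, with a median of -0.17, and 35 were lower and 0 higher at an unadjusted p under 0.05. Ndufa8, a complex I subunit, stood at -0.25 (SE 0.06, adjusted p = 0.169). The median enrichment of the 80 genes was 0.65, 0.69, 0.49 and 0.61 in control pools and 0.58, 0.52, 0.35 and 0.35 in deletion pools, which overlapped. Of 84 cytosolic ribosomal protein genes 82 were negative, with a median of -0.11 and 10 lower at an unadjusted p under 0.05, and Rpl7 stood at -0.20 (adjusted p = 0.175). Of 77 mitochondrial ribosomal protein genes 66 were negative (median -0.12, 12 lower), and of 36 proteasome genes 28 (median -0.08, 9 lower). The 65 translation factor genes stood at the value of all genes, with a median of -0.02, 25 positive and 40 negative, and 1 higher and 3 lower at an unadjusted p under 0.05. In each of the 4 lists of subunits the median input difference was above 0, from 0.04 to 0.07. Without deletion pool 5, 2.52% of all 13775 genes tested passed as lower and 3.48% as higher. In that fit 20 oxidative phosphorylation, 8 cytosolic ribosomal protein, 4 mitochondrial ribosomal protein and 4 proteasome genes passed as lower and none as higher.

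Astrocyte markers had mostly positive differences, as had those of oligodendrocyte precursors, whereas the lists of other glial and vascular cells were mixed. Of 21 astrocyte genes 17 had positive differences, with a median of 0.21, and 8 were higher and 2 lower at an unadjusted p under 0.05. Gja1 had enrichments of -4.60, -4.68, -4.97 and -4.76 in control pools and -4.06, -4.16, -3.31 and -3.99 in deletion pools, which did not overlap. It had -0.33 in input and 0.58 in pulldown. Slc1a2, the main glutamate transporter of astrocytes, stood at 0.23 (SE 0.06, adjusted p = 0.164). Summed over the 21 genes, input was 5885 to 6454 CPM in control and 5588 to 5796 CPM in deletion pools, and pulldown was 827 to 863 CPM in control pools and 850, 844, 1009 and 855 CPM in deletion pools 5 to 8. Only pool 7, which also had the highest vascular level, lay above the control pulldown range. The log2 ratio of these sums, pulldown over input, was -2.90 to -2.82 in control pools and -2.76 to -2.49 in deletion pools. The median enrichment over the single genes was lower than this ratio, -4.29 to -4.07 in control pools and -4.04 to -3.71 in deletion pools. A sum weights abundant genes more, and the part of this in the gap was not tested. Without deletion pool 7 the median difference was 0.14, without deletion pool 8 it was 0.13, and without pool 7 Gja1 passed at 0.68 (adjusted p = 0.0267). Without deletion pool 5 the median was 0.26, and 6 of the 21 passed, all higher, against 3.48% of all 13775 genes higher.

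Of 10 oligodendrocyte precursor genes 8 had positive differences (median 0.11, which was -0.01 on the log2(TPM + 1) scale), with Pdgfra, the precursors' growth factor receptor, at 0.50 (adjusted p = 0.281). Summed over the 12 listed precursor genes, the log2 ratio of pulldown to input overlapped. It was -2.15 to -1.94 in control pools and -2.15 to -1.95 in deletion pools. Of 18 oligodendrocyte genes 10 were positive (median 0.02), of 15 tanycyte and ependymal genes 7 (median -0.01), and of 16 microglia genes 7 (median -0.07), with Tyrobp at -0.61 (adjusted p = 0.222). The 11 vascular genes had a median of 0.41 with 6 positive, which turned to -0.14 at its lowest under other analyses. Flt1, a receptor of vascular endothelial growth factor, stood at 1.24 (SE 0.40, adjusted p = 0.196). The summed vascular level was 257 to 416 CPM in control input, 332 to 1092 in deletion input, 180 to 270 in control pulldown and 239 to 636 in deletion pulldown. The part of these cells' RNA in the differences was not tested.

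Neuronal receptor and channel lists had similar medians in both fractions and enrichment medians near 0. The 24 glutamate receptor genes had medians of -0.18 in input, -0.18 in pulldown and 0.03 in enrichment. The 14 GABA receptor genes had -0.17, -0.19 and -0.00, and the 20 peptide-processing genes -0.17, -0.19 and -0.03. Of 65 potassium channel genes 43 had positive differences, with a median of 0.04 against -0.15 in input, and of 85 cadherin and protocadherin genes 57 (median 0.07). Both lists hold long transcripts. Relative to genes of the same length, as described further on, potassium channels stood at 0.007 with 38 positive and cadherins at 0.04 with 50 positive. The enrichment medians of the glutamate receptor, potassium channel and cadherin lists were below 0 with library-total scaling and on both TPM scales, and the glutamate receptor median also with length offsets. No member of these lists passed. Heat shock genes were a group with higher medians in both fractions, 0.15 in input and 0.18 in pulldown, and 0.03 in enrichment.

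The differences followed transcript length. The tested genes were ordered by effective length, the ratio of estimated counts to counts scaled from TPM, and cut into 5 bins. In the shortest bin 22.4% of 2755 genes had a positive difference, with a median of -0.12, and in the longest 73.4%, with a median of 0.07. At an unadjusted p under 0.05, the shortest bin had 41 genes higher and 525 lower and the longest 562 higher and 48 lower. The median enrichment of the shortest bin was 0.34, 0.32, 0.24 and 0.26 in control pools and 0.27, 0.22, 0.11 and 0.10 in deletion pools, so deletion pool 5 lay within the control range. The longest bin had -0.16, -0.16, -0.10 and -0.14 in control pools and -0.14, -0.08, -0.02 and -0.01 in deletion pools. Input and pulldown moved oppositely, by 0.04 and -0.08 in the shortest bin and -0.04 and 0.04 in the longest.

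**Figure D5:**
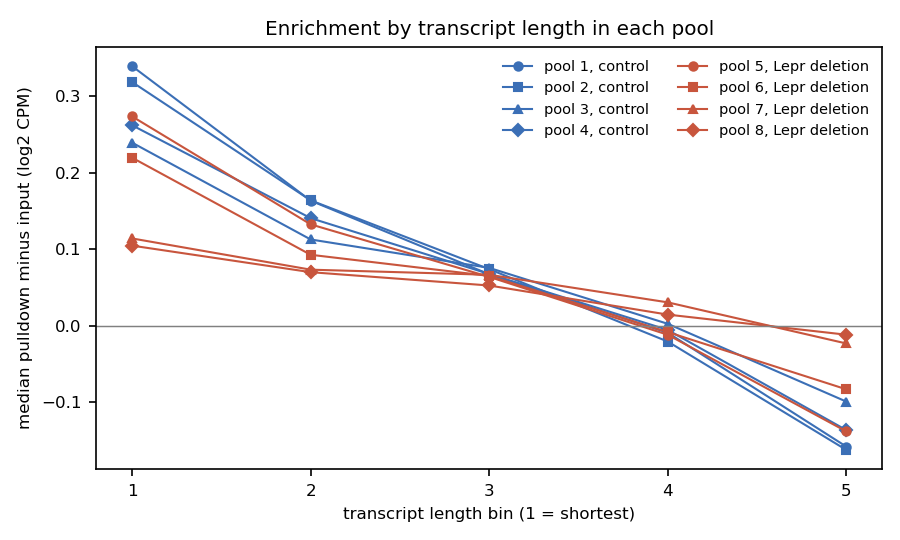
Median log2 enrichment of the genes in 5 bins of transcript length, shortest to longest, one line per pool, control pools in blue and deletion pools in red. Every pool fell from short to long transcripts, deletion pools 7 and 8 least, from 0.11 and 0.10 to -0.02 and -0.01.

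Relative to genes of the same length, in 50 bins, the lists of short transcripts with negative medians stood closer to 0 or changed sign. The bin medians included the list members, so a large list crowded in a few bins is partly compared with itself. Oxidative phosphorylation genes, with a median relative length of 0.303 against 1.46 in the middle of the 5 bins, stood at -0.03 with 33 of 80 positive. Cytosolic ribosomal protein genes stood at 0.03 with 58 of 84 positive, so their sign turned, and mitochondrial ribosomal protein genes at -0.00. Proteasome genes stood at 0.02 with 22 of 36 positive, and the 10 choroid, blood and pituitary markers went from -0.06 to 0.07. The 13 mitochondrially encoded mRNAs, also short, moved away from 0, from 0.13 to 0.24 with 12 of 13 positive. Astrocyte genes kept a positive value of 0.13, with 19 of 21 positive, and feeding peptides a negative value of -0.05, with 12 of 27 positive. The 36 sodium, calcium and HCN channel genes, with a median relative length of 2.67, went from -0.00 to -0.08 with 7 positive. With each library's trend on length removed, an analysis added after the data were seen, 6 genes passed: the 4 named above, Gja1 and Fam107a.

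Differences also varied with how strongly a transcript was enriched. The 546 genes with a mean enrichment below -3, where the astrocyte medians lie, had a median difference of 0.14 with 67.4% positive. The 7526 genes between 0 and 1 had a median of -0.04 with 38.3% positive, and the 116 genes above 1 a median of -0.08 with 36.2% positive. Cartpt belonged to the genes enriched in both genotypes and Serpina3n and Aim2 to those with negative mean enrichment.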

How the data were processed

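Hypothalamic RNA was measured by sequencing of bacTRAP pulldown and input libraries, 4 pools per genotype. The submitters' processing notes name Salmon 1.10.1, DESeq2 1.38.3 and the build GRCm38. For the annotation release and strand setting, nothing is given in the sources used here. The authors deposited estimated counts per gene, estimated counts scaled from TPM, and TPM. The scaled counts were TPM times the library total, to within 1% for all genes over 1 TPM. The authors' table of fold changes holds no interaction and was not used.

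Estimated counts were rounded, scaled by TMM, and tested in edgeR 4.0.16 (R 4.3.3), keeping genes with a mean of at least 1 CPM. The fit held 8 pool terms and 1 enrichment term per genotype. Input and pulldown differences came from a fit of 4 groups. Per-pool enrichment is the difference of log2 CPM with a prior count of 2. The script was tested on simulated data.

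An input is an aliquot of its pulldown's lysate per the labels' protocols, so numbers pair the libraries. Deviations correlated at 0.02 to 0.35 within pairs, above 0.1 in 4 of 8, and 6 of 8 matched their own number best. Without the replicate block 2 genes passed, Aim2 and Serpina3n.

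The members and the 38 gene lists were chosen with earlier results of these data known. Named were Lepr, Leprot, Pnoc and Rpl10a, passing genes, the 10 smallest p per direction where under 5 passed, and the 3 smallest p per list. Genes with the smallest p in the pulldown and in the input comparison were also taken. Some genes that this rule takes are not reported here. Relatives, neighbours, Npy, Pomc, Agrp and Socs3 were chosen after their values were seen, and Jak2 was named outside the rule. Pools are separate sets of animals, so p-values of the interaction measure spread between pools. The fit that gave the input and pulldown p-values held no pool term and treated the libraries of a pool as independent. Alternatives included DESeq2 1.42.0, limma 3.58.1 on log2(TPM + 1) and log2(TPM + 0.1), other scalings and filters, and leaving out each pool.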

Additional observations from a re-analysis of the deposited data

Results flagged for a closer look

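The enrichment effect differed between the genotypes, by the test of the interaction itself, for Aim2 (1.66), Serpina3n (-0.97), Cartpt (-0.57) and G530011O06Rik (-1.47), each on the log2 scale as deletion minus control.

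In 2 of 66 groups of 4 pools, 1 pool stood apart from the other pools of its genotype, with a gap that took up most of the group's whole range. Chance flags about 1 in 20 groups. Cartpt was at 1.17 in control pool 1, where the other control pools were at 1.08. Nov was at -1.49 in deletion pool 6 against -2.01 at the other end of its group.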

How the results depend on the processing

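The number of genes that passed was 4. It was 4 with RLE factors, without mitochondrially encoded genes, with edgeR's filterByExpr filter and on log2(TPM + 1), and 6 with length offsets. It was 2 with no replicate block, 2 by limma on per-pool differences, 2 at a mean of at least 5 CPM, 1 with counts scaled from TPM and 1 on log2(TPM + 0.1). It was 186 by DESeq2 (139 higher), 136 with library totals (6 higher), 577 with no filter (363 higher), 493 without pools 1 and 5 (341 higher) and 11 with the Y-linked level as a covariate (8 higher), which, like the length offsets, was chosen after seeing the data. Leaving out each pool gave 1 to 826. The cause was not tested. Serpina3n passed in all 23 analyses, Cartpt in 14 of 23, Aim2 in 11 of 21 and G530011O06Rik in 10 of 21. DESeq2 gave no adjusted p for 11 named genes, Aim2 and G530011O06Rik among them. With no replicate block Cartpt (adjusted p = 0.0524) and G530011O06Rik (0.0539) did not pass, whereas Aim2 and Serpina3n did. Pnoc changed sign near 0, to 0.00034 by limma on per-pool differences, 0.0052 with RLE factors, 0.013 without mitochondrially encoded genes, 0.023 with length offsets, 0.019 with the Y-linked covariate and -0.13 to 0.14 over the fits that left out 1 pool, positive in 3 of them. Leprot ran from -0.18 to 0.014 over those fits, positive without deletion pool 6, and Rpl10a 0.027 with length offsets. The median over all genes was -0.02, and -0.10, -0.08 and -0.09 with library totals and the TPM scales, where list medians near 0 turned negative. Genes with few counts, such as Aim2 in pulldown, have the widest errors.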

Other observations

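Transcripts made in mitochondria had mostly positive differences, unlike the nuclear genes of the same complexes, though the lists were not tested against each other. Of 13 mitochondrially encoded mRNAs 10 had positive differences of enrichment, with a median of 0.13 (-0.24 in input and -0.11 in pulldown), and none passed. mt-Nd5, a complex I subunit, stood at 0.22 (SE 0.09, adjusted p = 0.264) and mt-Atp6, a subunit of ATP synthase, at -0.96 (SE 0.32, adjusted p = 0.209). mt-Nd3, another complex I subunit, went against the list in input, at 1.65 (adjusted p = 0.000174), and stood at 3.04 in pulldown (adjusted p = 0.0117) and 1.40 in enrichment (SE 0.65, adjusted p = 0.314). Its input means were 99.5 and 312 CPM in control and deletion pools. Whether mt-Nd3 shares reads with near-identical copies elsewhere in the genome was not tested. In pulldown it had 40, 0, 0 and 0 counts in control pools 1 to 4 and 55, 71, 109 and 81 in deletion pools 5 to 8, so its enrichment rests on few counts, and it passed without control pool 1. Cytosolic ribosomes do not translate these RNAs, and they were strongly depleted from the pulldown in both genotypes.

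A pair of nuclear receptors of steroid hormones had positive differences without passing. Nr3c1, the glucocorticoid receptor, stood at 0.21 (adjusted p = 0.181) and Esr1, the estrogen receptor alpha, at 0.27 (adjusted p = 0.200). Of the 42 peptide and metabolic receptor genes 23 were positive, with a median of 0.03, and 4 were higher and 0 lower at an unadjusted p under 0.05. Among long noncoding RNAs, Malat1, a nuclear RNA, stood at 0.26 (adjusted p = 0.226) and Snhg14 at 0.30 (adjusted p = 0.200), both with negative input differences, -0.30 and -0.23. Of the 24 listed that were tested, 14 had positive and 10 negative differences, with a median of 0.06 and a lowest value of -0.40. At an unadjusted p under 0.05, 4 were higher and 2 lower.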
